A study of Mus musculus with 16 samples.

Results

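The 30 genes described here encode the enzymes that carry glucose through glycolysis, the lactate dehydrogenases, the glucose and lactate transporters, and the kinases that steer the pathway. They were chosen by name from knowledge of the pathway, and all 30 of 30 were found in both deposited tables, among 24982 genes in the count table. RNA had been sequenced from 16 primary rhabdoid tumors, each of a different mouse of the genotype Smarcb1flox/flox;R26-CreERT2, in which a tamoxifen-activated Cre recombinase is driven from the ubiquitous Rosa26 locus and deletes the chromatin remodelling gene Smarcb1. All tumors therefore arose after the same deletion, and no untreated or normal tissue was compared. The sample labels gave the site of each tumor, and the subgroup of each tumor followed the study's own table: 5 tumors within the brain (intra-CNS) were Shh tumors and 11 tumors outside the central nervous system (extra-CNS) were Myc tumors, so subgroup and site inside or outside the brain cannot be told apart. All 5 Shh tumors were induced at E6 and were taken at 30 to 180 days of age (median 87). The 11 Myc tumors were taken at 52 to 210 days (median 106), and comprised 6 intracranial tumors outside the brain (mice 43989C, 43992A, 29941C, 29225D, R26P170 and R26P115) and 5 extracranial tumors of the back (43825B), jaw (43987A and R26P123), nose (43990A) and mouth (43998A). Of the Myc tumors, those of mice 43825B and R26P170 were induced at E6, that of 29225D at E7 and the other 8 at E8. The nose tumor is extracranial in the labels and intracranial in the study's table, and the labels were followed.

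Glycolysis splits glucose into pyruvate in a chain of enzyme steps, and lactate dehydrogenase turns pyruvate into lactate, which leaves the cell through monocarboxylate transporters. Many steps have several isozymes, each the product of its own gene, which differ in the tissues where they prevail, such as Aldoc and Eno2 in the nervous system, Pfkm in muscle and brain and Hk3 in white blood cells. Many of these genes are targets of the hypoxia-inducible factors, which bind short sites such as ACGTG, and of Myc, which binds the E-box CACGTG.

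The data behind each value were deep for most members. Total counts ran from 17889968 to 110177889 per tumor, so that a floor of 3 counts stood for 0.0272 to 0.168 CPM (counts scaled to the library total), and 29 of the 30 genes averaged 50 counts or more per tumor. Smarcb1 itself was read at 3.99 to 9.91 TPM (read counts scaled for transcript length and depth) in 4 Shh tumors and 58.1 in that of mouse 29048, and at 6.48 to 26.1 TPM in 10 Myc tumors and 43.7 in that of R26P115. These 2 tumors stood apart in other ways. The tumor of 29048 had a summed level of 7 oligodendrocyte markers of 6725 TPM, against 47.5 to 175 in the other Shh tumors. In the tumor of R26P115, Ttr, a marker of choroid plexus, took 20% of all TPM, and Myc stood at 8.73 TPM, below the 87 to 225 of the other Myc tumors and the 9.31 to 28.8 of the Shh tumors. The called values that these tumors changed most are given with and without them. Values of the 5 Shh tumors are listed throughout in the order 29048, 38594A, 29050A, R26P98 and R26P87.

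The genes of the pathway differed widely in level, compared here on the TPM scale, per transcript length. Gapdh, Pkm and Aldoa were highest, with medians over the 16 tumors of 1341, 1153 and 999.9 TPM, above 99.7%, 99.7% and 99.6% of all genes. Ldha, Tpi1, Gpi1 and Pgk1 followed at 640.5, 611, 394 and 326 TPM. Among the transporters, medians ran from 144 TPM for Slc2a1 and 55.8 for Slc16a1 down to 11.8 for Slc16a3 and 1.98 for Slc16a7. Among the kinases that feed or steer the pathway, they ran from 53.9 TPM for Hk1, 50.4 for Pfkl and 35.5 for Pdk3 down to 8.76 for Pdk4, 8.06 for Hk2 and 5.78 for Hk3. Together the 30 genes took between 0.357% of all TPM (R26P87) and 1.15% (R26P170). Reads of some members could also have come from near-identical gene copies, since 67% of the 100-base stretches of Pgk1 transcripts, 53.1% of those of Gapdh, 39.7% of those of Pgam1 and 39.5% of those of Eno1 occur in another annotated gene as well. Their values are uncertain to the extent that the authors' counting split such reads.

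**Figure D1:**
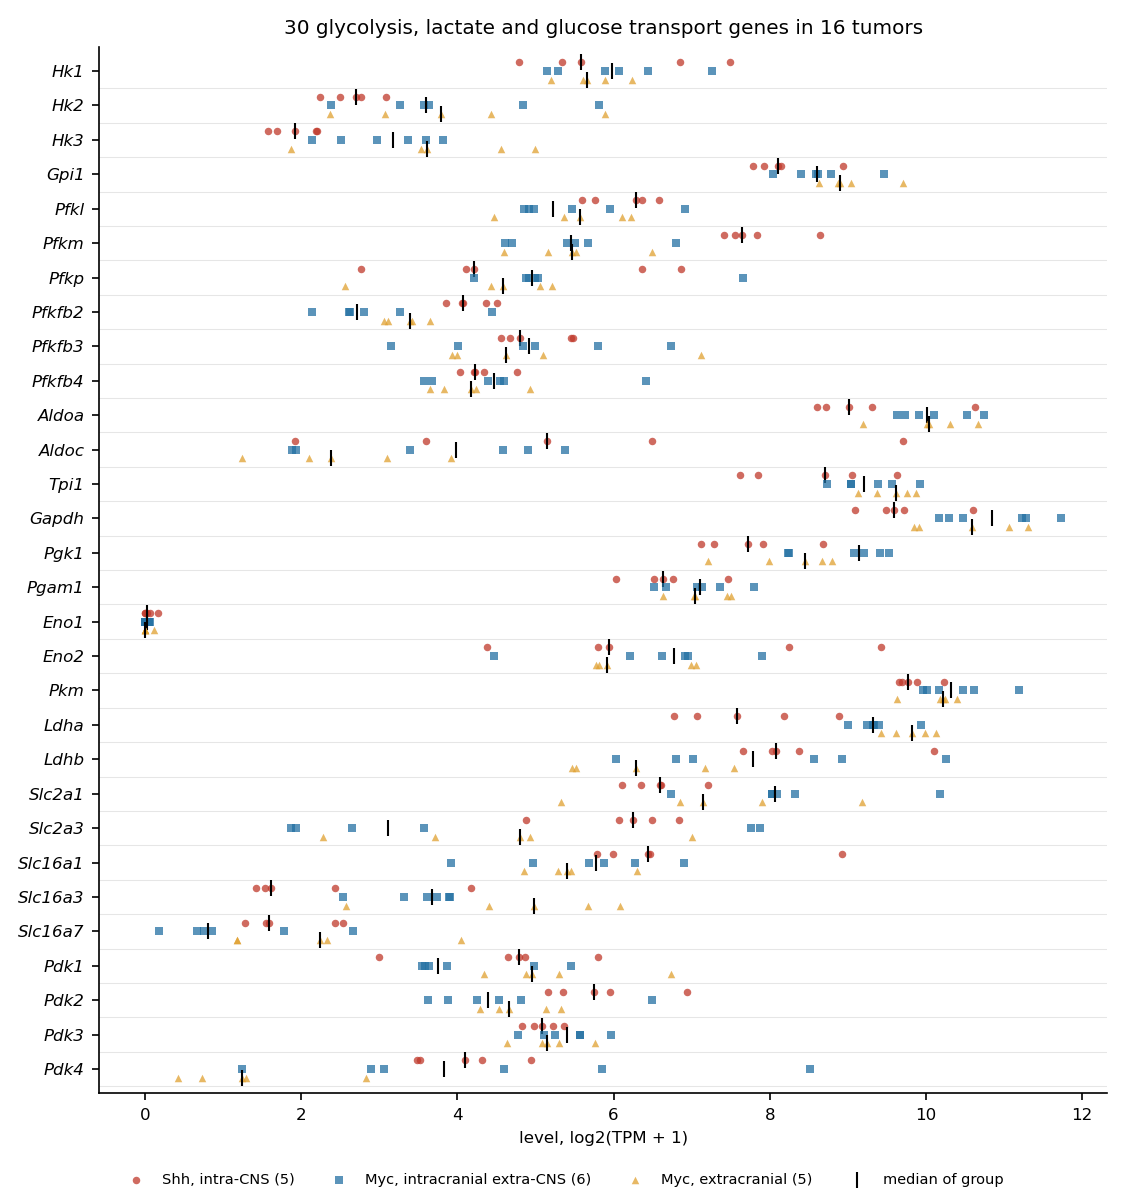
Level of each of the 30 genes in each of the 16 tumors, as log2(TPM + 1), with 1 line per gene, 1 point per tumor, a colour and shape per group and a black bar at the median of each group. Gapdh, Pkm and Aldoa lie farthest right, Eno1 lies at or near 0 in each tumor, and the Shh tumors of Ldha and Pfkm lie apart from the Myc tumors.

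Shh and Myc tumors were compared first, which asks whether sugar use genes differ between the subgroups. Much of the glycolytic chain was lower in Shh tumors. The genes taken to stand for the 10 steps, 1 each, were Hk2, Gpi1, Pfkl, Aldoa, Tpi1, Gapdh, Pgk1, Pgam1, Eno1 and Pkm. Of these 10, 7 fell and none rose, but Eno1 was listed at 0 to 3 counts and could not be read. The count depends on the isozyme taken: of all 16 step enzymes among the members, 8 fell and 2 rose. Ldha fell, and so did the transporters Slc2a1 and Slc16a3. Pfkm, the muscle and brain form of phosphofructokinase, and Aldoc, the brain form of aldolase, were higher in Shh tumors. In the quasi-likelihood test of edgeR, with p-values adjusted by the Benjamini-Hochberg method and a call made at an adjusted p under 0.05 and a change of more than 1 on the log2 scale, 13 of the 30 members passed, 11 lower and 2 higher in Shh tumors. Of all 21854 genes tested, 26% passed, 13.1% lower and 12.9% higher. The median log2 fold change over the 30 members was -0.80, against -0.15 over all genes tested. Pgam1 and Pdk3 had adjusted p under the threshold but changed by less than the fold required. Macrophage markers moved with the subgroup: all 9 of 9 markers were called lower in Shh tumors, with summed levels of 696 to 1121 TPM in Shh and 752 to 8808 in Myc tumors, and all 6 of 6 fibroblast markers were lower too (105 to 526 against 545 to 7795 TPM). Of 10 neuron markers, 6 were called higher in Shh tumors (268 to 5484 against 22.7 to 483 TPM). In bulk RNA of this kind, fewer cells of a type and less RNA per cell cannot be told apart, and the part of these cells in the results was not tested.

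**Figure D2:**
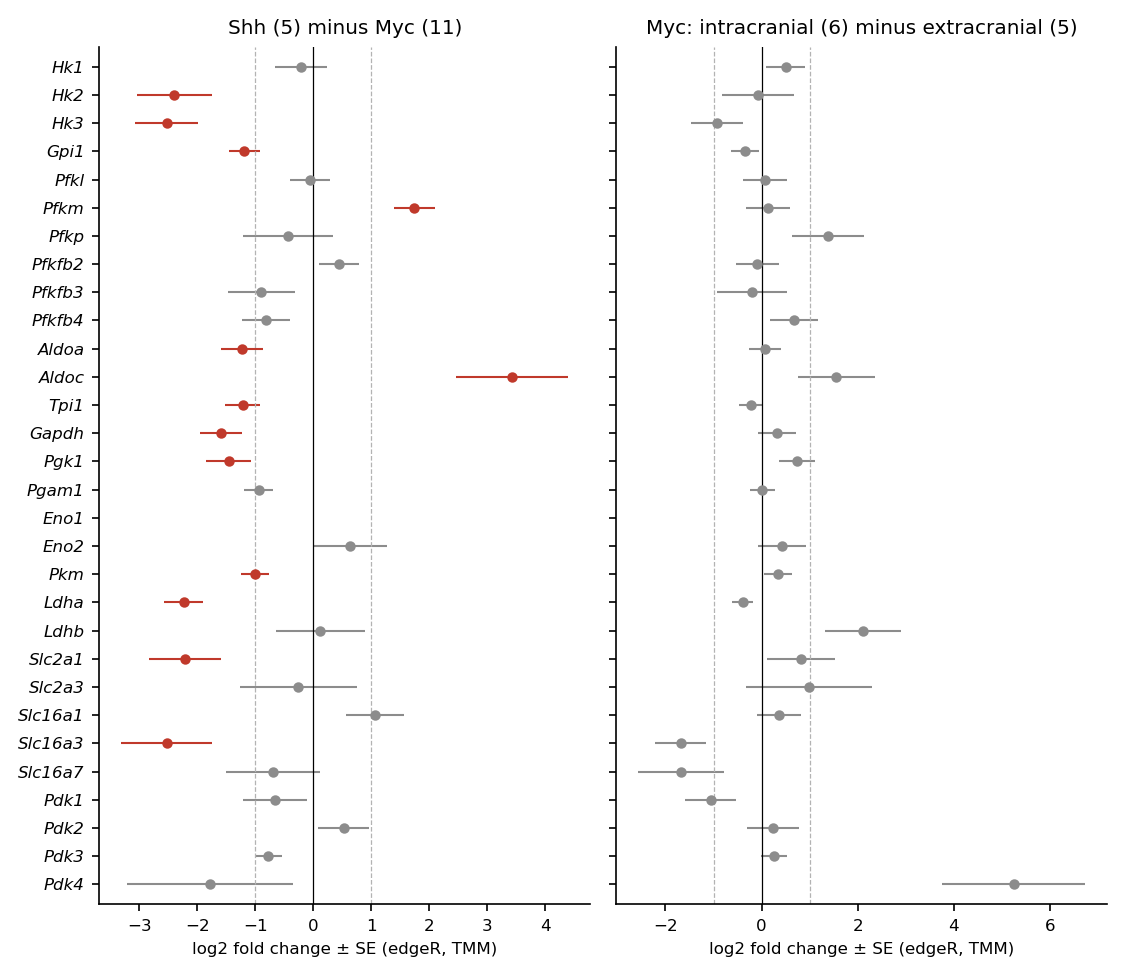
Log2 fold change of each member in edgeR on counts with TMM scaling, with bars of 1 standard error, members past the threshold in red, dashed lines at a change of 1 and Eno1 left out. Left, Shh minus Myc tumors, where 11 such members lie to the left of 0 and 2, Pfkm and Aldoc, to the right; right, intracranial minus extracranial Myc tumors, where none passed.

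The scale mattered for these counts. The median difference between Shh and Myc tumors over the 14807 genes that averaged 50 counts or more was 0 on the TMM scale used for the test, 0.30 on the scale of library totals, and 0.47 on the log2(TPM + 1) scale (14803 genes), where the median gene was thus higher in Shh tumors. On log2(TPM + 1) without further centring, limma passed 7 members (and 24.8% of all genes), 4 lower (Hk3, Gapdh, Ldha and Slc16a3) and 3 higher (Pfkm, Pfkfb2 and Pdk2), and over all genes it called 1324 lower and 4082 higher, against 2860 and 2829 in edgeR. With each tumor centred on its median, a choice made after seeing the data, limma passed 11 members, 10 lower and 1 higher, and 22.6% of all genes. All 13 members called by edgeR kept their sign on each of these scales. Slc2a3, Pdk4, Hk1, Pfkl, Pfkfb3 and Slc16a7, which were not called, did not. For Slc2a3 and Pdk4 log2 fold changes were -0.26 and -1.79 on the TMM scale, while differences in mean log2(TPM + 1) were 1.71 and 1.10. For Hk1, Pfkl, Pfkfb3 and Slc16a7 they were -0.22, -0.06, -0.90 and -0.69 on the TMM scale, against 0.13, 0.59, 0.06 and 0.26. Among subsets of tumors edgeR passed 11 members against the intracranial Myc tumors alone (23.0% of all genes), 10 against the extracranial ones alone (26.2%) and 11 among tumors induced at E6 (16.9%). It passed 13 members without the tumors of 29048 and R26P115 (27.1%), an omission chosen after seeing the data, and 15 members with no fold required (33.1%).

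**Figure D3:**
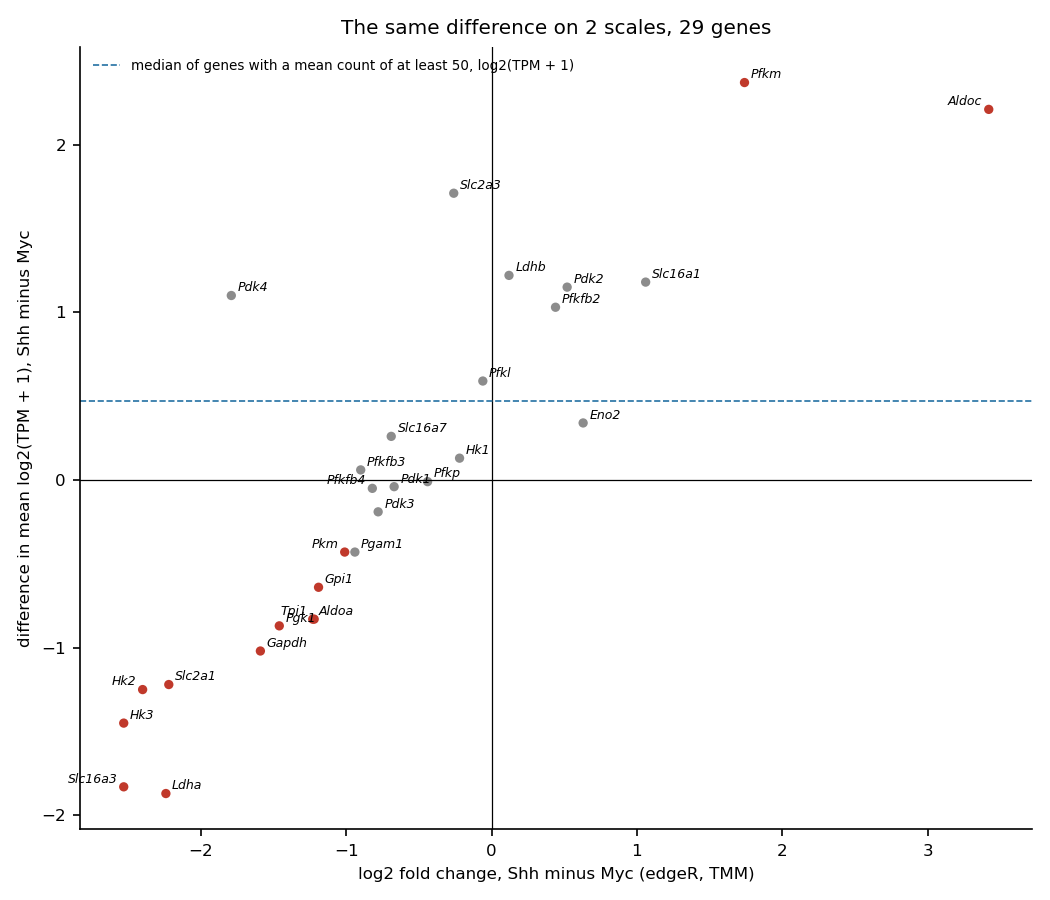
Difference between Shh and Myc tumors for 29 members (Eno1 left out), as the log2 fold change on TMM-scaled counts (horizontal) and as the difference in mean log2(TPM + 1) (vertical). Members called by edgeR are red, and the dashed line marks the median of 0.47 over genes averaging 50 counts or more. Pdk4, Slc2a3, Hk1, Pfkl, Pfkfb3 and Slc16a7 lie in the quadrant where the signs differ.

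The entry of glucose into the cell depends on the glucose transporters and its capture on the hexokinases. Slc2a1, which encodes the widespread glucose transporter GLUT1 (chromosome 4, 119108711 to 119137983, GRCm38), stood at 147, 68.2, 80.8, 95.6 and 96.5 TPM in Shh tumors, and at 39.2, 259 and 1154 TPM as the lowest, median and highest Myc tumor. The groups overlapped, with 7 of the 11 Myc tumors above every Shh tumor and that of 43990A below all of them. The log2 fold change between Shh and Myc tumors was -2.22 ± 0.62 (SE; edgeR, adjusted p = 0.0122). Against the extracranial Myc tumors alone Slc2a1 lost its call (log2 fold change -1.71, edgeR, adjusted p = 0.053), and so it did on log2(TPM + 1) in limma (-1.22, adjusted p = 0.101). Slc2a3, the transporter of neurons, stood at 28.5, 75.3 and 113 TPM as the lowest, median and highest Shh tumor and spread from 2.67 to 234 TPM over Myc tumors, and it did not pass (edgeR log2 fold change -0.26, adjusted p = 0.861).

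Among the hexokinases, which trap glucose as its phosphate, Hk1 is the form of most tissues, Hk2 that of muscle, fat and many tumors, and Hk3 that of white blood cells. Hk2 (chromosome 6, 82725025 to 82774454) was at 4.65, 3.74, 5.53, 7.52 and 5.82 TPM in Shh tumors and at 4.17, 11.4 and 58.1 TPM in the lowest, median and highest Myc tumor. Of the Myc tumors, 8 lay above every Shh tumor, and the difference was -2.40 ± 0.65 on the log2 scale (edgeR, adjusted p = 0.0101). Hk3 (chromosome 13, 55005985 to 55021385) was at 3.59, 1.97, 2.80, 3.56 and 2.23 TPM in Shh tumors, against 2.65, 10.6 and 30.9 TPM in the lowest, median and highest Myc tumor. It overlapped in TPM only through the Myc tumors of 43998A (2.65) and 43992A (3.39), and on TMM-scaled CPM all Shh tumors lay below all Myc tumors, as for 8.02% of genes averaging 50 counts or more (6.94% lay above). Its log2 fold change was -2.53 ± 0.54 (edgeR, adjusted p = 0.00195). Neutrophil markers were lower in Shh tumors as well, 7 of 8 by the same test (summed level 7.22 to 15 TPM, against 3.91 to 940 in Myc tumors), and their part in the value of Hk3 was not tested. Hk1 ranged from 26.6 to 178 TPM in Shh and from 34.5 to 152 TPM in Myc tumors, and was not called (adjusted p = 0.718 in edgeR). Its highest values were those of 29048 in Shh and R26P115 in Myc tumors.

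Gpi1 encodes glucose-6-phosphate isomerase, the enzyme of the step after hexokinase. It was read at 491, 281, 220.4, 273 and 242 TPM in Shh tumors and at 262, 439 and 831 TPM in the lowest, median and highest Myc tumor, a log2 fold change of -1.19 ± 0.27 (edgeR, adjusted p = 0.00331). The Shh tumors of 29050A and R26P87 lay below every Myc tumor, and 3 Myc tumors exceeded all Shh tumors.

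Phosphofructokinase, the committed step of glycolysis, is built from subunits of 3 genes named for liver (Pfkl), muscle (Pfkm) and platelet (Pfkp). Pfkm (chromosome 15, 98092589 to 98132451) was at 399.9, 228, 199, 187 and 169 TPM in Shh tumors, and at 23.3, 43.3 and 111 TPM in the lowest, median and highest Myc tumor. All 5 Shh tumors lay above all 11 Myc tumors in TPM, although on TMM-scaled CPM the groups overlapped. The log2 fold change was 1.74 ± 0.35 (edgeR, adjusted p = 0.00131). In TPM, 20.5% of genes averaging 50 counts or more did not overlap, 17.2% with Shh tumors higher and 3.32% with Shh tumors lower. Pfkl ranged from 47.5 to 94.7 TPM in Shh and from 21.1 to 119 in Myc tumors (adjusted p = 0.901 in edgeR), and Pfkp from 5.80 to 115 TPM in Shh and from 4.88 to 201 in Myc tumors (adjusted p = 0.677). Skeletal muscle markers had a summed level of 3.87 to 11 TPM in Shh and 4.51 to 770 TPM in Myc tumors, with overlap. Of these 10 markers, 6 were called lower in Shh tumors and none higher, and their part in the difference in Pfkm was not tested. Over the 16 fits that left out 1 tumor each, the log2 fold change of Pfkm ran from 1.47 to 2.0, and it passed in all 16.

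The bifunctional enzymes Pfkfb2, Pfkfb3 and Pfkfb4 make or break fructose 2,6-bisphosphate, the strongest activator of phosphofructokinase. None of the 3 passed in edgeR, with log2 fold changes of 0.44, -0.90 and -0.82 and adjusted p of 0.328, 0.236 and 0.144. Pfkfb3 spread most over Myc tumors, from 7.91 TPM in that of R26P115 to 139 in that of 43987A. Pfkfb2 was at 13.4 to 21.7 TPM in Shh tumors, and 10 of 11 Myc tumors lay below every Shh tumor.

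Aldolase cleaves the 6-carbon sugar, and Aldoa is its widespread form while Aldoc is that of the brain. Aldoa, annotated as a pair of adjoining genes on chromosome 7 (126795234 to 126800751 and 126800790 to 126809108), was at 1582, 632, 419, 515 and 387 TPM in Shh tumors and at 586, 1054 and 1716 TPM in the lowest, median and highest Myc tumor. Its log2 fold change was -1.23 ± 0.36 (edgeR, adjusted p = 0.0144), with 3 Shh tumors below every Myc tumor and that of 29048 near the highest of them. It was -1.76 without 29048, and short of the threshold against the extracranial Myc tumors alone (-1.18, edgeR, adjusted p = 0.0644) and among tumors induced at E6 (-1.84, adjusted p = 0.0504). Aldoc (chromosome 11, 78322968 to 78327781) was at 836, 34.6, 88.9, 11.1 and 2.78 TPM in Shh tumors and at 1.37, 7.60 and 40.6 TPM in the lowest, median and highest Myc tumor. Only the tumors of 29048 and 29050A lay above every Myc tumor. The log2 fold change was 3.42 ± 0.97 (edgeR, adjusted p = 0.0132). It shrank to 0.93 (edgeR, adjusted p = 0.421) once 29048 was left out, so the call rests on that tumor, which also had the highest summed astrocyte markers, 2285 TPM over 7 genes against 175 to 974 in the other Shh tumors and 13.1 to 596 in Myc tumors. Astrocytes are the main cells with Aldoc in normal brain, and their part in this result was not tested.

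Tpi1, which interconverts the products of aldolase, was at 792, 415, 230.2, 528 and 196 TPM in Shh tumors and at 425, 667 and 967 TPM in the lowest, median and highest Myc tumor (edgeR log2 fold change -1.22 ± 0.30, adjusted p = 0.0058). Gapdh, which makes the first NADH, stood at 1558, 843, 718, 773 and 546 TPM in Shh tumors and at 924, 1539.9 and 3398 TPM in the lowest, median and highest Myc tumor (edgeR log2 fold change -1.59 ± 0.36, adjusted p = 0.00333). For Gapdh 4 of the 5 Shh tumors were below every Myc tumor, and for Tpi1 3 were. Pgk1, which makes the first ATP, was at 411, 209, 155, 241 and 138 TPM in Shh tumors, and at 147, 404 and 735 TPM in the lowest, median and highest Myc tumor. Its log2 fold change was -1.46 ± 0.39 (edgeR, adjusted p = 0.00858). Here 5 Myc tumors lay above every Shh tumor, and the nose tumor of 43990A, at 147 TPM, lay among the lowest Shh tumors. Against the extracranial tumors alone Pgk1 met neither the fold nor the adjusted p required (-0.99, edgeR, adjusted p = 0.0728). Among tumors induced at E6 Tpi1 lost its call (-1.67, edgeR, adjusted p = 0.0575). Pgam1, the mutase of the following step, ranged from 64.1 to 176 TPM in Shh and from 90.5 to 222 in Myc tumors, where edgeR gave a log2 fold change of -0.94 ± 0.25 (adjusted p = 0.00901), short of the fold required.

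Pyruvate kinase, the last step, is encoded in these tissues by Pkm, whose M1 and M2 splice forms cannot be told apart in counts per gene. Pkm was at 1199, 806, 827, 941 and 872 TPM in Shh tumors and at 790.2, 1191 and 2335 TPM in the lowest, median and highest Myc tumor. Its log2 fold change of -1.01 ± 0.24 (edgeR, adjusted p = 0.00477) was just past the fold required. It fell short of that fold, at -0.98, with DESeq2's size factors.

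The enolases could not be compared as a pair. Eno1, the enolase of most tissues (chromosome 4, 150236721 to 150248879), was listed at 0 to 3 counts in every tumor, at most 0.12 TPM. Since nearly every cell uses it, this says only that the gene is listed near 0 in these tables. Eno1b, a gene almost identical in sequence that shares 74.7% of its 100-base stretches with other annotated genes, Eno1 among them, was listed at 13 to 3728 counts. How the authors' counting divided reads between them is not given in the sources used here. Eno2, the enolase of neurons (chromosome 6, 124760053 to 124769673), was at 683, 304, 60.2, 54.5 and 19.9 TPM in Shh tumors and at 21.1, 97.7 and 238 TPM in the lowest, median and highest Myc tumor. Its highest levels were those of 29048 and 38594A, the Shh tumors with the highest summed neuron markers (5484 and 3404 TPM). It was not called (edgeR log2 fold change 0.63 ± 0.63, adjusted p = 0.458), and without the tumor of 29048 the sign turned, to -0.41.

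At the end of the pathway, Ldha favours the making of lactate and Ldhb its use. Ldha (chromosome 7, 46841475 to 46855627) was at 189.8, 289.6, 108, 470.2 and 133 TPM in Shh tumors and at 513, 689 and 1118 TPM in the lowest, median and highest Myc tumor. All 5 Shh tumors lay below all 11 Myc tumors, in TPM, as for 3.32% of genes, and on TMM-scaled CPM, as for 8.02%. The log2 fold change was -2.24 ± 0.33, or 4.71-fold lower in Shh tumors (edgeR, adjusted p = 0.000121), the lowest adjusted p of the 30 members, and it lay between -2.65 and -2.05 when each tumor was left out in turn. Ldhb was at 1099.5, 270.1, 329.6, 201 and 260.3 TPM in Shh tumors. Over Myc tumors it was at 43.2, 128 and 1227 TPM as the lowest, median and highest, with the highest again in R26P115. It did not differ beyond that spread (edgeR log2 fold change 0.12 ± 0.76, adjusted p = 0.911), and without 29048 the log2 fold change was -0.57.

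Lactate crosses the membrane by Slc16a1 (MCT1), Slc16a3 (MCT4, a form known for lactate export) and Slc16a7 (MCT2). Slc16a3 (chromosome 11, 120948480 to 120960868) was at 1.68, 4.41, 1.89, 17.0 and 2.06 TPM in Shh tumors and at 4.80, 13.9 and 66.8 TPM in the lowest, median and highest Myc tumor. Of the Shh tumors, 4 lay below every Myc tumor and that of R26P98 above the median. The log2 fold change was -2.53 ± 0.78 (edgeR, adjusted p = 0.0201). It lost its call when the tumor of 29048, 38594A, 29050A or R26P87 was left out, with adjusted p of 0.0506, 0.0503, 0.0536 and 0.0522, while without R26P98 the difference was larger, -3.65. Against the intracranial Myc tumors alone it was -1.53 and not called (edgeR, adjusted p = 0.0987), and against the extracranial ones alone -3.21 (adjusted p = 0.0195). Slc16a1 (chromosome 3, 104638668 to 104658462) was at 87.5, 54.0, 62.9, 487 and 85.9 TPM in Shh tumors and at 14.1, 42.9 and 118 TPM in the lowest, median and highest Myc tumor. It was not called (edgeR log2 fold change 1.06 ± 0.50, adjusted p = 0.114), and without the tumor of R26P98, at 487 TPM, the log2 fold change was -0.06. Slc16a7 was low, at 1.44 to 4.80 TPM in Shh and 0.133 to 15.5 TPM in Myc tumors (adjusted p = 0.521 in edgeR).

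The pyruvate dehydrogenase kinases Pdk1 to Pdk4 close the way from pyruvate into the mitochondrion. None of the 4 passed. Pdk3 came nearest, at 27.3 to 40.2 TPM in Shh and 23.8 to 61.8 TPM in Myc tumors (edgeR log2 fold change -0.78 ± 0.23, adjusted p = 0.0161, short of the fold required). Pdk2 was lower in 9 of 11 Myc tumors than in any Shh tumor in TPM, but its log2 fold change on the TMM scale was 0.52 (adjusted p = 0.372 in edgeR). Pdk4, a kinase raised by fasting and fatty acids, was at 10.2, 16.1, 10.5, 18.9 and 29.7 TPM in Shh tumors and spread over Myc tumors from 0.34 TPM in that of 43987A to 366 in that of 29225D.

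Promoter sequences of RefSeq (GRCm38.p6, 300 bases around the start that RefSeq gives) were matched for 28 of the 30 members, all but Slc2a3 and Slc16a7. That start lies 4329 bases inside the GENCODE gene span given above for Ldha and 587 bases inside it for Slc16a3. Of the 13 called members, 9 have windows that hold ACGTG on either strand, and 5 of these are shown. The windows of Gpi1, a called member without it, and of Slc16a1, the partner of Slc16a3, are shown as well. Capitals mark ACGTG or its reverse complement CACGT, and CACGTG, which contains both, is marked as a run of 6 capitals.

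Ldha promoter, chr7:46845554-46845853, plus strand: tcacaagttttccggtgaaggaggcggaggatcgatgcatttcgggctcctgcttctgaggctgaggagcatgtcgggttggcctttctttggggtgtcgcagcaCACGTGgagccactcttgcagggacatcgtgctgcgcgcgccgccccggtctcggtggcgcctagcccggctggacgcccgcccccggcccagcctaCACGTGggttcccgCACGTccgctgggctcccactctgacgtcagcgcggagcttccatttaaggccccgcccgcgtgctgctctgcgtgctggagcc
Pgk1 promoter, chrX:106186850-106187149, plus strand: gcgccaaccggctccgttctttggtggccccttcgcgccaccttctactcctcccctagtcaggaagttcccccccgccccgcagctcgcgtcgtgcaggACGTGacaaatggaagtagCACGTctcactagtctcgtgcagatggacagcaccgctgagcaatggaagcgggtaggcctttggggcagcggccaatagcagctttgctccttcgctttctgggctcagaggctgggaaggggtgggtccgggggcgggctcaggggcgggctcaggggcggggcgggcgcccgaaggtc
Slc16a3 promoter, chr11:120948817-120949116, plus strand: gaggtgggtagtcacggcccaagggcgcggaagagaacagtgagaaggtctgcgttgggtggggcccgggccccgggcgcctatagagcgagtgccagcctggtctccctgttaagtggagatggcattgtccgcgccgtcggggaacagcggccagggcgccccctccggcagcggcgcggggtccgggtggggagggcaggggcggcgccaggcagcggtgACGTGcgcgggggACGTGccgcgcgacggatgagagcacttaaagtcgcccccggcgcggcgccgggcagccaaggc
Gpi1 promoter, chr7:34230287-34230586, minus strand: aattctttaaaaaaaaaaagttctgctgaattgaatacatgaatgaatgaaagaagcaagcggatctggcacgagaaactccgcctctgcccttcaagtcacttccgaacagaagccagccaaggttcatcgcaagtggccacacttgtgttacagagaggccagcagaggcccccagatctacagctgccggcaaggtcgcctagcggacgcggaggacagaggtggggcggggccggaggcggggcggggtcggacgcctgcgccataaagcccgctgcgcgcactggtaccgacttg
Slc16a1 promoter, chr3:104638414-104638713, plus strand: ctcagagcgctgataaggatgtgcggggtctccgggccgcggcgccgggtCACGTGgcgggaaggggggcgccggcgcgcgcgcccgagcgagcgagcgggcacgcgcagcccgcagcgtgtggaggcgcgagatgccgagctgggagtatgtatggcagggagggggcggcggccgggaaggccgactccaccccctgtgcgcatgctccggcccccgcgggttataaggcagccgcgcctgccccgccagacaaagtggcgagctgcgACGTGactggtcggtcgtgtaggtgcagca
Pfkm promoter, chr15:98092339-98092638, plus strand: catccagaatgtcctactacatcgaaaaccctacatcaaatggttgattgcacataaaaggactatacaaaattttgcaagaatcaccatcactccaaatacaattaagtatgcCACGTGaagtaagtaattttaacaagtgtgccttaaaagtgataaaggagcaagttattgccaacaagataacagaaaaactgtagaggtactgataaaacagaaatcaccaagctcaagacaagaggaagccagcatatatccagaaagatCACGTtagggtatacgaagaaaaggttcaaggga
Aldoc promoter, chr11:78322823-78323122, plus strand: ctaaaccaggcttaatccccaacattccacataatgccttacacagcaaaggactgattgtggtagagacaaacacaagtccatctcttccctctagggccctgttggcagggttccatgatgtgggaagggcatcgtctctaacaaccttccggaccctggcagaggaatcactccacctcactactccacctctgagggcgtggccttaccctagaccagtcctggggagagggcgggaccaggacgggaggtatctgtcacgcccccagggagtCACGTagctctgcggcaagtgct

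The Ldha window held 3 marked stretches, of which 2 were CACGTG, and the Pgk1 and Slc16a3 windows held 2 stretches each without a full CACGTG. Slc16a1 and Pfkm, which were not lower in Shh tumors, each held 2 with 1 CACGTG, and Aldoc held 1. Of the 11 members called lower in Shh tumors, 7 windows held ACGTG on either strand and 4 did not, those of Gpi1, Aldoa, Tpi1 and Pkm. Both windows of members called higher held it, and so did 6 of the 15 windows of members that were not called. ACGTG on either strand was present in 15 of the 28 windows of members, and in 19.7% of all 27025 promoters of the same length. CACGTG was present in 5 of the 28 and in 7.24% of all. These are matches of letters in 1 window per gene, the first that RefSeq lists. Other forms of the binding sites were not searched for, and binding was not measured.

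Isozyme choice was then read from log2 ratios of TPM within each tumor, log2((first + 1)/(second + 1)), which do not depend on the scaling of the tumor as a whole apart from the added 1. Of 10 pairs compared between Shh and Myc tumors, 4 had an adjusted p under 0.05 in two-sided exact permutation tests, and the groups overlapped in each. The ratio of Slc16a1 to Slc16a3 was 5.04, 3.35, 4.47, 4.76 and 4.83 in Shh tumors, so Slc16a1 was the higher in all 5. In Myc tumors it ran from -0.79 (43998A) to 3.72 (43990A). The mean was 4.49 ± 0.67 (SD, n = 5) in Shh and 1.47 ± 1.43 (SD, n = 11) in Myc tumors, a difference of 3.02 (exact permutation p = 0.000916, adjusted 0.00916). The tumor of R26P98 had the highest Slc16a1 and the highest Slc16a3 of the Shh tumors, and its ratio lay within those of the other 4.

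The ratio of Aldoa to Aldoc was 0.92, 4.15, 2.22, 5.42 and 6.68 in Shh tumors and ran from 5.20 to 8.80 in Myc tumors, with means of 3.88 ± 2.34 (SD, n = 5) and 6.91 ± 1.17 (SD, n = 11). Aldoa was the higher in each of the 16 tumors, by least in that of 29048. The difference was -3.04 (exact permutation p = 0.00778, adjusted 0.0252). Within the intracranial tumors alone it was -2.55 (exact permutation p = 0.0563), and among tumors induced at E6 alone -2.59 (exact permutation p = 0.286).

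Over all tumors, the balance of Ldha and Ldhb differed between the subgroups. Their ratio was -2.53, 0.10, -1.60, 1.22 and -0.96 in Shh tumors, so Ldhb was the higher in 3 of 5, while in Myc tumors it ran from -1.26 to 4.47 and Ldha was the higher in all but that of R26P115. Means were -0.75 ± 1.46 (SD, n = 5) and 2.33 ± 1.71 (SD, n = 11), a difference of -3.09 (exact permutation p = 0.00687, adjusted 0.0252). Within the intracranial tumors alone the difference was -2.20 (exact permutation p = 0.0649). It was -4.56 among tumors induced at E6 alone (exact permutation p = 0.0952) and -1.82 among R26P mice alone (exact permutation p = 0.6). Pfkm against Pfkp had means of 2.96 ± 1.35 (SD, n = 5) and 0.58 ± 1.31 (SD, n = 11), a difference of 2.38 (exact permutation p = 0.0101, adjusted 0.0252), which was 1.45 (exact permutation p = 0.158) among the mice with plain numbers, the other naming scheme being R26P.

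The other ratios did not pass adjustment. Pdk1 to Pdk2 differed by -1.19 (exact permutation p = 0.0275, adjusted 0.0549) and Slc2a1 to Slc2a3 by -2.93 (exact permutation p = 0.0362, adjusted 0.0603). Slc2a1 exceeded Slc2a3 in all 11 Myc tumors, by as much as 8.25 on the log2 scale in R26P170, and in 3 of 5 Shh tumors. Hk1 exceeded Hk2 in each tumor but that of 43987A (difference between groups 1.38, exact permutation p = 0.0989). The Eno1 to Eno2 ratio, -0.31 (exact permutation p = 0.673), reads Eno2 alone because Eno1 is listed near 0.

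**Figure D4:**
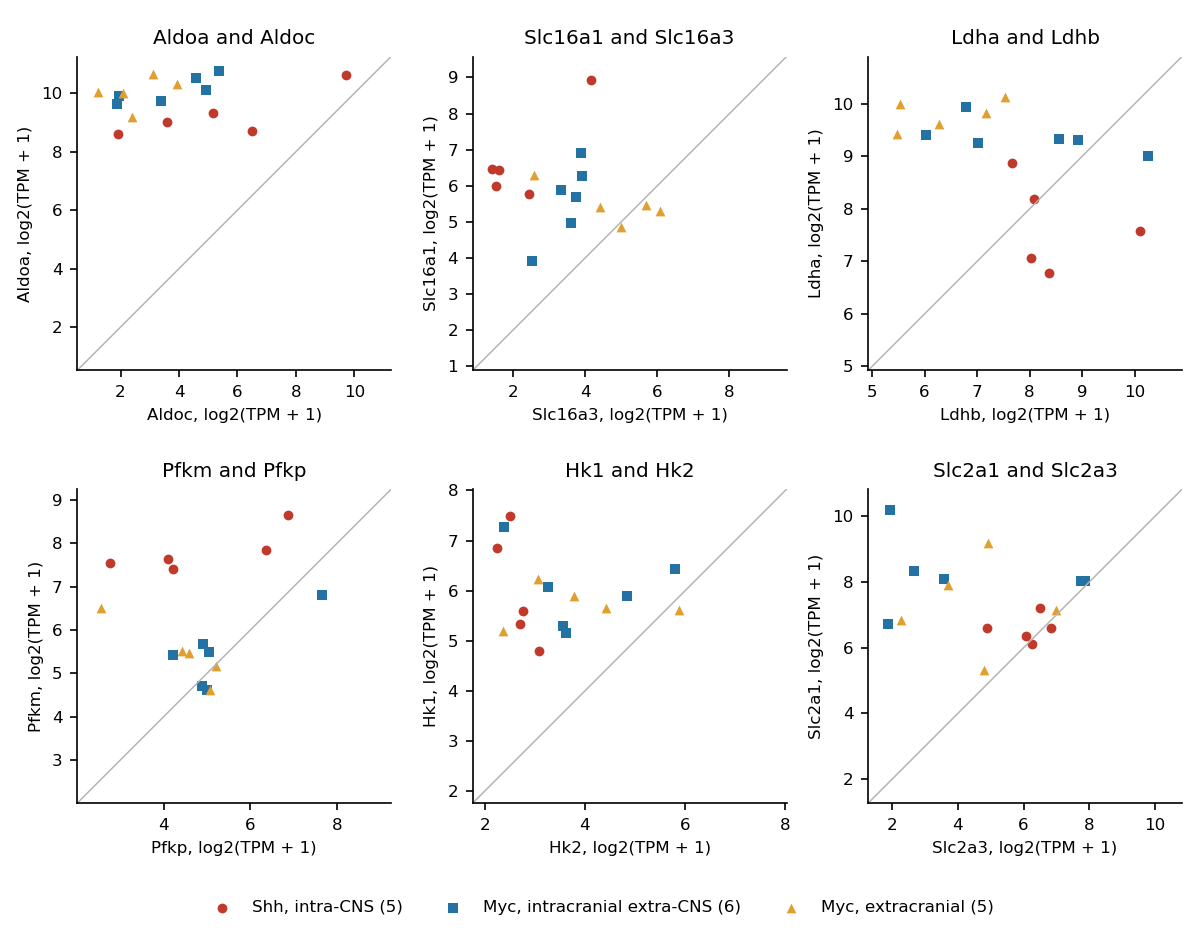
Pairs of isozymes or transporters in the 16 tumors, as log2(TPM + 1) of the first gene (vertical) against the second (horizontal), with a grey line of equal level. Shh tumors (circles) lie above the line for Slc16a1 and Slc16a3 while 3 extracranial Myc tumors (triangles) lie below it, and 3 of 5 Shh tumors lie below it for Ldha and Ldhb.

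The site was compared within the Myc tumors, 6 intracranial against 5 extracranial, to ask whether the place of growth goes with these genes at a shared subgroup. None of the 30 members passed in edgeR, where 0.00470% of 21261 genes did. At an unadjusted p under 0.05 there were 3 members, against 12.3% of all genes, and these were Pdk4, Slc16a3 and Ldhb. DESeq2 called 1 member, Pdk4, and 2.30% of all genes, and limma on log2(TPM + 1) called no member and 0.00471% of genes, centred or not. No member was without overlap in TPM between the sites, as against 0.993% of genes averaging 50 counts or more.

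Slc16a3 was at 12.4, 13.9, 8.99, 14, 11.2 and 4.80 TPM in the intracranial tumors of 43989C, 43992A, 29941C, 29225D, R26P170 and R26P115, and at 50.2, 20.2, 4.98, 66.8 and 30.7 TPM in the extracranial tumors of 43825B, 43987A, 43990A, 43998A and R26P123. Of the extracranial tumors 4 lay above every intracranial one, and the exception was that of 43990A, whose site is given in different ways. The log2 fold change, intracranial minus extracranial, was -1.68 ± 0.53 (edgeR, adjusted p = 0.346). In the same order of mice, Pdk4 was at 6.46, 1.36, 7.33, 366, 23.2 and 56.7 TPM in intracranial tumors and at 1.46, 0.34, 0.66, 1.37 and 6.13 TPM in extracranial tumors. Of the intracranial tumors 5 lay above all extracranial ones (log2 fold change 5.24 ± 1.48, edgeR, adjusted p = 0.345), and without 29225D the log2 fold change was 3.42. Ldhb was at 128, 64.4, 485, 377, 109.9 and 1227 TPM in intracranial and 45.0, 76.8, 185, 143 and 43.2 TPM in extracranial tumors (log2 fold change 2.11 ± 0.79, edgeR, adjusted p = 0.365), and 1.22 without R26P115.

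The chain enzymes went both ways between the sites, and none passed. Over the 10 step genes the log2 fold changes, intracranial minus extracranial, had a median of 0.07 and ran from -0.34 ± 0.29 for Gpi1 (edgeR, adjusted p = 0.655) to 0.74 ± 0.37 for Pgk1 (adjusted p = 0.434). For Pgk1, 4 of the 6 intracranial tumors lay above every extracranial one in TPM. Pkm and Gapdh had values of 0.34 ± 0.30 and 0.32 ± 0.40 (adjusted p of 0.656 and 0.755 in edgeR), Tpi1 of -0.23 ± 0.25, Aldoa of 0.07 ± 0.33 and Pgam1 of 0.01 ± 0.26 (adjusted p of 0.71, 0.952 and 0.993). Among the ratios none had an exact permutation p under 0.05 between the sites. Slc16a1 to Slc16a3 had means of 2.10 ± 0.66 (SD, n = 6) and 0.72 ± 1.80 (SD, n = 5), a difference of 1.38 (exact permutation p = 0.108, adjusted 0.335). With 43990A counted as intracranial, the difference was 2.37 (exact permutation p = 0.00606). Ldha to Ldhb had means of 1.44 ± 1.79 (SD, n = 6) and 3.40 ± 0.82 (SD, n = 5), a difference of -1.96 (exact permutation p = 0.0519, adjusted 0.281).

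Of 53 further genes of the pathway and its branches, 10 passed between Shh and Myc tumors in edgeR, 5 lower and 5 higher in Shh tumors. This share of 18.9% was below the 26% of all genes tested. Of the 7 genes of the pentose phosphate pathway on the list 2 passed, both lower, and the other 5 had log2 fold changes of -0.81 (Pgls) to 0.11 (G6pdx). Of the 6 genes listed for glycogen metabolism 2 passed, both lower, and the other 4 had log2 fold changes of -0.33 (Pgm2) to -0.08 (Pygb). Pgd, of the oxidative pentose phosphate pathway, was at 87.8, 115 and 131 TPM in the lowest, median and highest Shh tumor against 87.8, 469 and 950 in Myc tumors (edgeR log2 fold change -2.67, adjusted p = 0.000195), and Taldo1, transaldolase of the same pathway, at 158, 176 and 194 against 175, 652 and 1630 TPM (-2.60, adjusted p = 0.000585). Pgm1, a phosphoglucomutase, and Gys1, of glycogen synthesis, had edgeR log2 fold changes of -1.37 and -1.16 (adjusted p of 0.000904 and 0.0221). The phosphoglucomutases Pgm1 and Pgm2 were both listed for glycogen, and which of them serves it in these tumors was not tested. For Emb, a partner protein of the lactate transporters, the log2 fold change was -3.68 (edgeR, adjusted p = 0.0328). Emb was at 931 TPM in the tumor of R26P115 and at 8.13 to 168 TPM in the other Myc tumors, against 3.88 to 51.3 in Shh tumors. Without R26P115 its log2 fold change was -2.21 (edgeR, adjusted p = 0.0317), and the call was lost without 38594A, 29050A, R26P98 or R26P87, with adjusted p of 0.0734, 0.0775, 0.0736 and 0.0746. Gys1 lost its call without 38594A (-1.06, edgeR, adjusted p = 0.0623) or R26P170, where it was no longer past the fold required. Among the higher ones were Bpgm, which makes 2,3-bisphosphoglycerate (72.4 to 156 TPM in Shh and 15.9 to 67.7 in Myc tumors, with no overlap, as for 17.2% of genes on this scale; edgeR log2 fold change 1.39, adjusted p = 0.00446) and the pyruvate dehydrogenase phosphatases Pdp1 and Pdp2, which undo the work of the Pdk kinases (edgeR log2 fold changes 2.52 and 1.55, adjusted p of 0.000567 and 0.00363). Pdp1 was at 217 TPM in the tumor of 29048 and at 14.6 to 54.6 TPM in the other Shh tumors, against 4.33 to 10.2 in Myc tumors. Leaving out 29048 gave a log2 fold change of 1.31 (edgeR, adjusted p = 0.00294). Between the sites none of the 53 passed in edgeR. At an unadjusted p under 0.05 there were 10 of the 53, against 12.3% of all 21261 genes.

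Of 14 genes known to be induced in hypoxia that are no members (Car9, Vegfa, Ankrd37, Egln3, Bnip3, Ndrg1, Adm, P4ha1, P4ha2, Kdm3a, Higd1a, Ero1l, Mxi1 and Bhlhe40), 3 passed between Shh and Myc tumors in edgeR, 2 lower (P4ha1, a collagen prolyl hydroxylase, -2.29, adjusted p = 0.0012, and Ero1l, an oxidase of the endoplasmic reticulum, -1.56, adjusted p = 0.0129) and 1 higher (Egln3, an oxygen-sensing prolyl hydroxylase, 2.33, adjusted p = 0.0199). This is a share of 21.4%, against 26% of all genes tested. The median log2 fold change over the 14 was -0.66, against -0.15 over all genes tested. Egln3 was at 63.5 to 127 TPM in Shh tumors and 1.61 to 47.8 TPM in Myc tumors, without overlap, as for the 17.2% of genes that lay wholly higher in Shh tumors in TPM. It lost its call against the extracranial Myc tumors alone (1.83, edgeR, adjusted p = 0.0927).

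Within the 11 Myc tumors, 4 relations between members and other measures were examined as correlations across tumors, with permutation p adjusted over the 4. The mean log2(TPM + 1) of the 10 step genes rose with that of the 14 hypoxia genes (Pearson r = 0.89, permutation p = 0.00034, adjusted 0.00136, and Spearman rho = 0.81, permutation p = 0.00366, adjusted 0.00732, n = 11). The tumors of R26P170 and 43987A were highest on both axes, and without them, the farthest from the median, r was 0.68 (permutation p = 0.044, n = 9). Among the 8 mice with plain numbers r was 0.85. The 10 step genes include Eno1, which is listed near 0, so the enolase step has no real share in their mean. What lies behind the relation was not tested. With the level of Myc itself, the step genes had r = 0.17 (permutation p = 0.584, adjusted 0.584, rho = 0.15, permutation p = 0.654, adjusted 0.654), and r was -0.34 without R26P115 and R26P170. Hk3 rose with the mean of 9 macrophage markers (r = 0.84, permutation p = 0.00146, adjusted 0.00292, and rho = 0.87, permutation p = 0.0009, adjusted 0.0036), also without R26P115 and 43825B (r = 0.81, permutation p = 0.00822, n = 9) and among the 8 mice with plain numbers (r = 0.89). Pfkm and 10 skeletal muscle markers had r = -0.28 (permutation p = 0.403, adjusted 0.537) and rho = -0.41 (permutation p = 0.215, adjusted 0.287), with r = -0.35 without R26P123 and 43825B and 0.04 among the 8 mice with plain numbers.

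**Figure D5:**
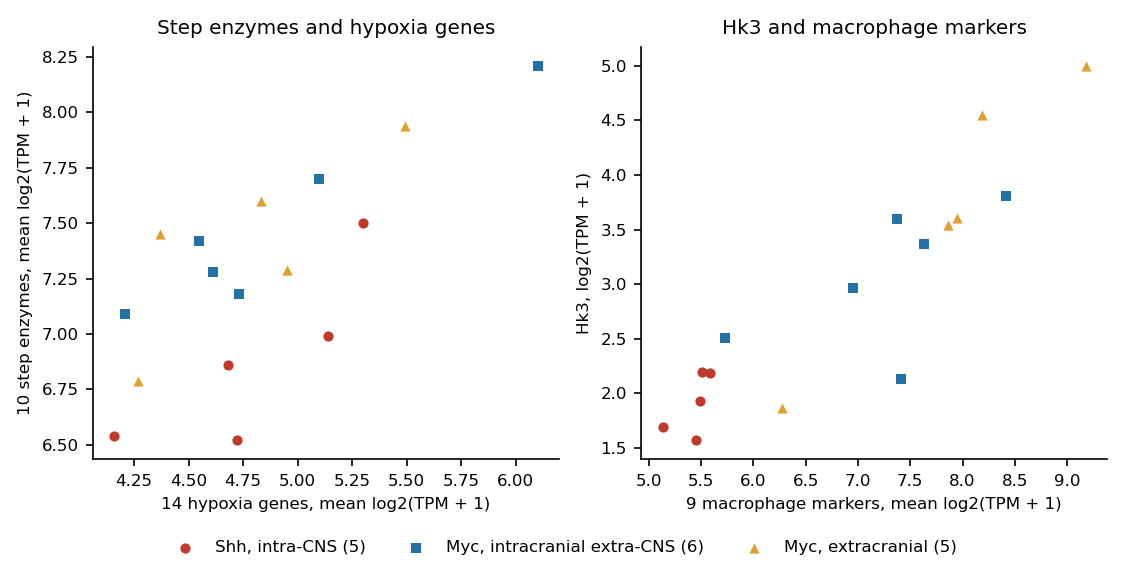
Left, mean log2(TPM + 1) of the 10 step genes against that of 14 hypoxia genes. Right, Hk3 against the mean of 9 macrophage markers, both per tumor. In both panels values rise together over the 11 Myc tumors (r = 0.89 and 0.84), and Shh tumors (circles) lie low for Hk3 and for macrophage markers.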

How the data were processed

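RNA-seq of 16 tumors was analysed. The authors deposited whole-number counts per gene, which are not normalized, and TPM values. Dividing count by TPM gave a value within 5% of the gene's median in 100% of cases with enough reads, so both rest on 1 set of counts. Per the submitters' processing notes the reads were handled with Trim Galore, FastQC, Picard and STAR 2.5.3a on mm10. The annotation behind the counts is not given in the sources used here. The libraries were stranded and selected for polyadenylated RNA, and no molecular identifiers were used, so the floors of 3 counts cover counting error only. Each mouse gave 1 tumor, so replicates are separate animals.

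Counts of the 21854 genes read at least once (21261 for the sites, in a fit of the Myc tumors alone) were tested in edgeR 4.0.16 (TMM, glmQLFit, glmQLFTest) under R 4.3.3. Adjustment was by Benjamini and Hochberg's method across every gene tested, and a call needed an adjusted p below 0.05 with a log2 fold change beyond 1 in either direction. The code was tested on simulated data. Standard errors were taken as the log2 fold change divided by the square root of the F statistic. Log2 ratios of TPM + 1 were tested by exact permutation, two-sided, using all 4368 splits (5 against 11) or 462 splits (6 against 5) in scipy 1.17.1, adjusted over 10 ratios. Correlations used 100000 resamples. Non-overlap was counted over genes averaging 50 counts or more.

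Alternatives were DESeq2 1.42.0, edgeR run with its size factors, edgeR's filterByExpr, limma 3.58.1 on log2(TPM + 1), no fold threshold, the mouse naming scheme as a covariate, only tumors of E6 or only those of E8, intracranial tumors alone, extracranial against intra-CNS tumors alone, 43990A as intracranial, a pseudocount of 0.1, and the omission of single tumors. Chosen after seeing the data were these alternatives for named genes outside the members, the omission of 29048 and R26P115 together and limma on TPM centred per tumor. The members, the lists and the tests were chosen with earlier results of these data known. All 30 members are accounted for; values in every tumor, or the lowest, median and highest of groups of over 5, are given for members past the threshold in either comparison and for the pairs of Eno1 and Eno2, Aldoa and Aldoc, and Slc16a1 and Slc16a3, and other members by range; Ldhb, Pdk4 and Egln3 are shown in more detail after their values were seen. Positions and shared stretches of 100 bases came from GENCODE vM21 and promoters from RefSeq, both GRCm38. Sequences were read from the first window listed for a gene. Some genes of the further list are counted but not reported here by name. Figures were drawn with matplotlib 3.10.9.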

Additional observations from a re-analysis of the deposited data

Results flagged for a closer look

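In groups of 5 or 6 tumors, 120 sets of values (each of the 30 genes and 10 ratios in Shh, intracranial Myc and extracranial Myc tumors) were screened for a highest or lowest tumor far from the nearest other one, by Dixon's criterion. Chance alone marks about 1 in 20 such groups, and 6 were marked. Pfkp stood at 201 TPM in the intracranial tumor of R26P115, against 31.8 in the next. Pfkfb4 stood at 84 TPM in the intracranial tumor of 29225D, against 23.3 in the next. Pkm stood at 790 TPM in the extracranial tumor of 43990A, below the 1156 of the next lowest. Ldhb stood at 1100 TPM in the Shh tumor of 29048, against 330 in the next. Slc16a1 stood at 487 TPM in the Shh tumor of R26P98, against 87.5 in the next, and Slc16a3 was highest in the same tumor. Eno1 stood at 0.0822 TPM in the extracranial tumor of 43990A and was listed at 0 in the others, which is a matter of a few reads.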

How the results depend on the processing

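All 13 members called between Shh and Myc tumors kept their sign in 26 of 26 alternatives. Hk3, Pfkm, Gapdh and Ldha also kept their calls in all 26, while Pkm lost its call in 11, Aldoc and Slc16a3 in 6 each and the other called members in at most 3 (Aldoa in 3, Slc2a1, Tpi1 and Pgk1 in 2, Hk2 and Gpi1 in 1). The 11 genes named outside the members kept their sign in these alternatives too, while Emb lost its call in 8, Gys1 in 6 and each of the others in at most 1. The number of members called was 12 by DESeq2 and 11 to 14 with single tumors left out, but 7 by limma on log2(TPM + 1). Over all genes, 5689 calls became 3533 at E6 alone, where 2 Myc tumors remain, and 4766 to 6649 with single tumors left out. Between the sites, 1 gene was called by edgeR, 490 by DESeq2, 0 at E8 alone and 0 to 3 with single tumors left out, while members called were 0, or 1 by DESeq2, and 0 in each fit that left out a tumor. Why these counts moved was not tested, other than that fewer tumors enter some of them.

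For the ratios, the difference in Aldoa to Aldoc between Shh and Myc tumors was -0.36 among R26P mice alone (exact permutation p = 1), -2.55 among intracranial tumors alone, -2.59 at E6 alone and -3.74 to -2.30 with single tumors left out. That in Slc16a1 to Slc16a3 was 3.92 among R26P mice alone (exact permutation p = 0.2) and 3.92 at E6 alone (exact permutation p = 0.0952), subsets too small to reach 0.05, and 2.79 to 3.30 with single tumors left out. Between the sites it was 2.37 with 43990A as intracranial and 1.01 to 2.14 with single tumors left out. Eno1 to Eno2 turned its sign without 29048 and R26P115 (0.31), on CPM (0.20), among R26P mice (2.24), as a share in percent (0.108), at E6 alone (0.77) and, with single tumors left out, at -0.93 to 0.35 (0.35 without 29048 and 0.08 without 38594A). Between the sites it turned with 43990A as intracranial (0.06), among mice with plain numbers (0.07) and at -0.60 to 0.09 with single tumors left out. Other differences that turned sign were small or of few tumors. Hk1 to Hk2 between the sites was -0.18 among mice with plain numbers and -0.27 to 0.63 with single tumors left out (-0.23 without 43987A). Pfkfb3 to Pfkfb2 was 0.07 between subgroups among R26P mice, and between the sites -0.17 with 43990A as intracranial, -1.50 among R26P mice and -0.01 to 0.96 with single tumors left out. Pfkl to Pfkp between subgroups was -0.54 among mice with plain numbers, -0.50 at E6 alone and -0.04 to 1.06 with single tumors left out. Pfkm to Pfkp between the sites was 0.34 with 43990A as intracranial. The correlation of the step genes with Myc was -0.34 without R26P115 and R26P170.

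No paired analysis was possible because no mouse contributed to more than 1 group. Tumors induced at E8 alone hold no Shh tumor, and with R26P mice alone the sites leave 1 extracranial tumor, a value with no test. Every tumor in the brain was a Shh tumor induced at E6, so the parts of site and subgroup cannot be told apart. The 11 Myc tumors at 2 sites left standard errors of 0.22 to 1.48 on the log2 scale for the members, so differences of that order between the sites were not detectable with this number of tumors. Larger differences also went uncalled, such as 5.24 for Pdk4 and -1.68 for Slc16a3 (edgeR, adjusted p of 0.345 and 0.346).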

Other observations

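Eno1b, which is nearly identical to Eno1, fell into high and low values across tumors. It was listed at 13 to 140 counts in 4 tumors, those of 38594A, R26P170, 43987A and 43998A, and at 370 to 3728 counts in the other 12. The low tumors came from all 3 groups, and the log2 fold change between Shh and Myc tumors was -0.61 (edgeR, adjusted p = 0.676).

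The tumor of R26P115, where Ttr took 20% of all TPM, also held high levels of transporter genes outside the 30 members: Slc16a8, a lactate transporter of choroid plexus and retinal pigment epithelium, at 95.6 TPM, Slc2a12, a glucose transporter, at 272 TPM (44.1 to 204 TPM in Shh tumors and at most 2.81 in the other Myc tumors), and Bsg and Emb, partner proteins of lactate transporters, at 3350 and 931 TPM. Eno3, the muscle enolase, stood at 159 TPM in the jaw tumor of R26P123, at 126 TPM in the tumor of 29225D and at 88.2 TPM in that of 43989C, where the summed skeletal muscle markers were 770, 13.5 and 100 TPM. Pgam2, the muscle mutase, was highest in R26P123 at 15.5 TPM, while Pfkm was at 34.9 TPM there, below the median of 43.3 over Myc tumors. Fbp2, the muscle form of fructose bisphosphatase, stood at 103 TPM in the back tumor of 43825B.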
